A study of Prunus dulcis with 36 samples.

Results

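Of the 8676 unigenes listed for young almond fruits, 241 were listed at 0 FPKM in all 6 groups of abnormal fruits and reached at least 20 FPKM in 1 or more of the 6 groups of normal fruits. The listed unigenes are only a part of those that the paper assembled, and how this part was chosen is not known. Shares of all listed unigenes below refer to this part. These 241 normal-only unigenes were chosen by these values, so their difference between fruit types is a description and carries no test. The samples were fruitlets of the almond (Prunus dulcis) cultivar ZhiPi at 12, 17, 22, 27, 32 and 37 days after flowering (DAF). Normal fruits were developing normally, and abnormal fruits were atrophied fruits from the same branch that were likely to be shed soon. Fruits of a plant were pooled for each replicate, and each of the 12 groups had 3 replicates, which makes 36 samples. The deposited values are 1 mean per unigene and group, made by the authors over the replicates, so no spread between replicates, test or interval accompanies any value here.

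A unigene is a transcript put together from the reads themselves, without a genome, and it may be a whole mRNA, a fragment of one or a variant of another unigene. FPKM is a count of sequenced fragments scaled by transcript length and by sequencing depth, so levels of different unigenes are given per length. Fruit trees shed a share of their young fruits, which is preceded by slower fruit growth and ends at an abscission zone in the fruit stalk, where auxin from the growing fruit delays and ethylene promotes the separation of cells. In whole fruits, fewer cells of a type and less RNA per cell cannot be told apart. A unigene at 0 is described below as listed at 0, since the number of reads behind a value is unknown. The FPKM of all listed unigenes summed to between 210419 and 320430 per group. Normal fruits of 12 and 17 DAF stood apart with those of 2 abnormal groups (12 and 22 DAF) by unigenes with best hits in Brassicaceae, which are described at the end. Abnormal fruits of 17 DAF had 1 of these 170 unigenes above 0. The paper describes 2 genes, also measured by RT-qPCR, as falling in abnormal fruits at 17 DAF and rising again at 22 DAF. From the sequencing it describes the same course for a cluster of genes, and a sharp fall at 17 DAF for another cluster. Whether the abnormal columns of 17 and 22 DAF are as labelled is not known and was not tested. The rule uses all 6 abnormal groups together, and the 241 unigenes are the same when those columns are exchanged. The counts by stage and background shares that rest on the labels of these columns are given both ways. Other values of these columns are given as labelled. Without normal fruits of 12 and 17 DAF, 160 unigenes met the rule, 152 of them above 0 in 1 normal group.

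The highest value of the 241 normal-only unigenes lay between 20.05 and 206 FPKM, with a median of 40.5 FPKM and quartiles of 27.5 and 63.0 FPKM. Among them, 92 reached 50 FPKM and 29 reached 100 FPKM. The other 2457 unigenes with a normal value of at least 20 FPKM had a median highest normal value of 57.4 FPKM and reached 44836 FPKM. The quartiles of these others were 32.7 and 123 FPKM. The normal-only unigenes thus had a lower median, with wide overlap. The mirror set, at 0 in all normal groups and at least 20 FPKM in an abnormal group, had 242 unigenes with a median of 38.8 FPKM and a highest value of 285 FPKM. At the minimum of 20 FPKM, the normal-only and abnormal-only sets were thus close in number and in median level. With no minimum, 772 unigenes were listed above 0 in normal fruits only and 678 in abnormal fruits only.

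Just inside the minimum were DN30188_c0_g1 (20.05 FPKM at 12 DAF), DN47752_c0_g1 (20.06 FPKM at 37 DAF) and DN33425_c0_g1 (20.1 FPKM at 17 DAF). Just below it, with 0 in all abnormal groups, were DN48530_c0_g1 (19.8 FPKM at 17 DAF), DN53578_c0_g1 (19.6 FPKM at 27 DAF) and DN28139_c2_g4 (19.6 FPKM at 32 DAF). On the abnormal side there was a gap: no other unigene with at least 20 FPKM in normal fruits had a highest abnormal value of 1 FPKM or less, a count of 0. The closest were DN16203_c0_g1 with 20.9 FPKM at 12 DAF against 3.79 FPKM in abnormal fruits of 17 DAF, DN27530_c2_g3 with 22.1 FPKM at 12 DAF against 4.08 FPKM in abnormal fruits of 22 DAF, and DN25217_c3_g3 with 33.3 FPKM at 37 DAF against 4.61 FPKM in abnormal fruits of that stage. For 2126 of the other 2457, the highest abnormal value was itself at least 20 FPKM.

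Nearly all normal-only unigenes were found at a single stage. Within normal fruits, 222 of 241 (92.1%) were above 0 in 1 of the 6 groups, 15 (6.22%) in 2 and 4 (1.66%) in 3, and 0 were above 0 in 4 or more. Of the other 2457 unigenes with a normal value of at least 20 FPKM, 283 (11.5%) were above 0 in 1 normal group and 2023 (82.3%) in all 6. The abnormal-only unigenes had the same form, with 228 of 242 (94.2%) above 0 in 1 abnormal group. The normal-only label is thus, for 222 unigenes, a value in 1 of the 12 groups and 0 in the other 11.

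**Figure D1:**
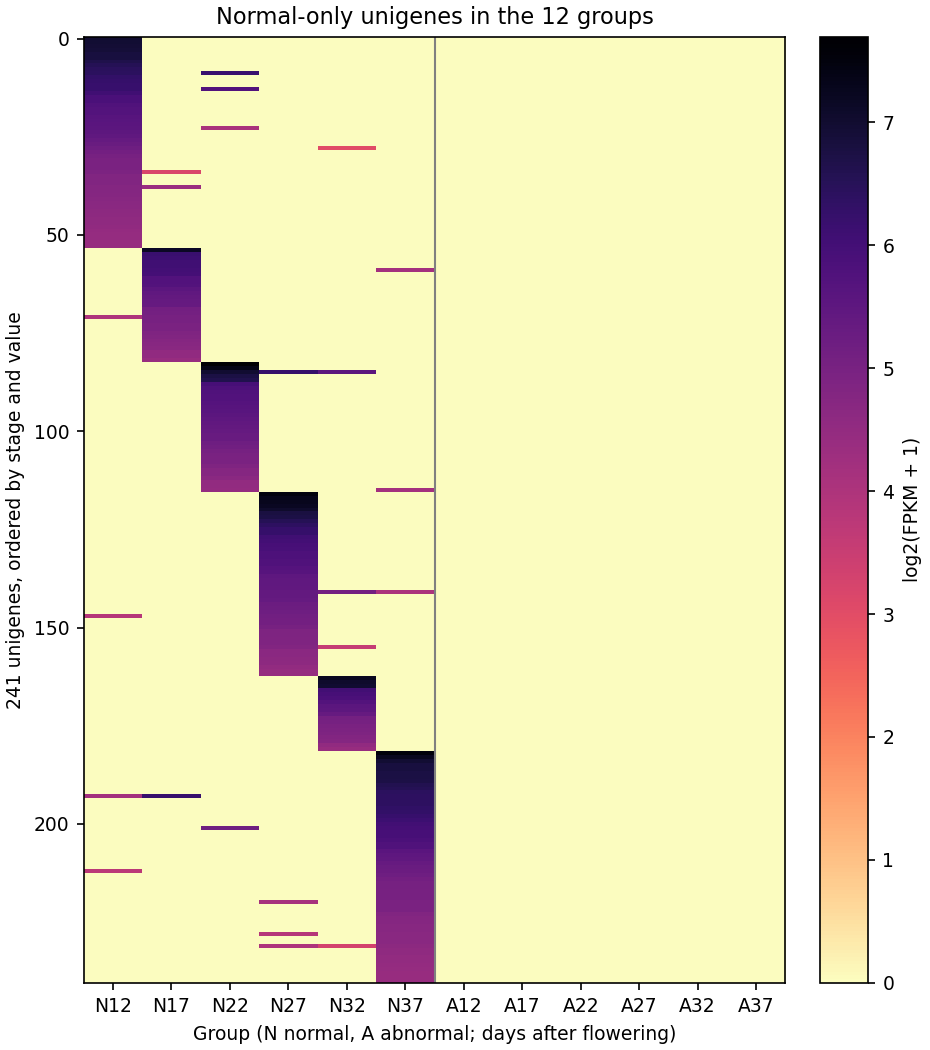
Each row is 1 of the 241 normal-only unigenes and each column 1 of the 12 groups (N normal, A abnormal, days after flowering), with colour for log2(FPKM + 1) of the authors' group mean. The rows form 6 blocks with 1 coloured column each, and 19 rows have a value in 1 or 2 further columns.

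Read against all listed unigenes that reached 20 FPKM in any of the 12 groups, the normal-only unigenes were part of a larger number of unigenes with a value in few groups. Of these 3201, 450 were above 0 in 1 group only, of which 222 were in normal and 228 in abnormal fruits. A further 389 were above 0 in 2 groups, of which 362 had 1 normal and 1 abnormal group, 15 had 2 normal groups and 12 had 2 abnormal groups. At the other end, 2101 were above 0 in all 12 groups, and between 8 and 59 were counted for each number from 3 to 11 groups. Among unigenes above 0 in 2 groups, the pair was most often the normal and abnormal fruits of 37 DAF, with 118 unigenes. Next were pairs of a normal group with the abnormal group of the following stage, namely 22 with 27 DAF (54 unigenes) and 27 with 32 DAF (40 unigenes). The 2 fruit types of 1 stage made up 220 of these pairs, and for 17 DAF this count was 0. Pairs with the following stage were also found for normal fruits of 32 DAF with abnormal fruits of 37 DAF (18 unigenes). For normal fruits of 17 DAF with abnormal fruits labelled 22 DAF there were 12. With the abnormal columns of 17 and 22 DAF exchanged, the pairs of 1 stage number 209.

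**Figure D2:**
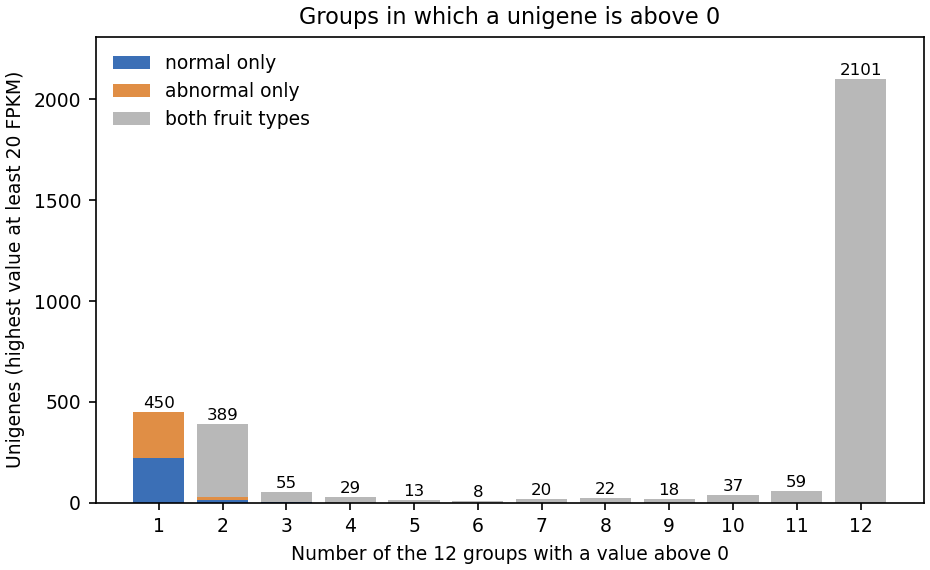
Bars count the 3201 unigenes with a highest value of at least 20 FPKM by the number of the 12 groups in which they were above 0, split into normal only, abnormal only and both fruit types. The counts pile up at 1 and 2 groups (450 and 389) and at all 12 groups (2101).

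All 772 unigenes listed at 0 in abnormal fruits and above 0 in normal fruits were also looked at by level, a split chosen after the values were seen. A value at 1 stage only was less common among the weak ones: 125 of 194 below 5 FPKM (64.4%) and 261 of 337 from 5 to 20 FPKM (77.4%). From 20 to 50 FPKM it was 136 of 149 (91.3%), from 50 to 100 FPKM 58 of 63 (92.1%), and from 100 FPKM upwards 28 of 29 (96.6%). So the higher the FPKM of a normal-only unigene at its highest stage, the more often it was listed at 0 at the other 5. FPKM is scaled by length and the reads behind a value are unknown, so a high FPKM here need not mean many reads.

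The normal-only unigenes were spread over the 6 stages. By the stage of their highest value, 54 of the 241 (22.4%) belonged to 12 DAF, 29 (12.0%) to 17 DAF, 33 (13.7%) to 22 DAF, 47 (19.5%) to 27 DAF, 19 (7.88%) to 32 DAF and 59 (24.5%) to 37 DAF. The fewest were at 32 DAF and the most at 37 DAF. Their highest values had medians of 39.1, 39.3, 41.0, 42.9, 39.6 and 38.1 FPKM from 12 to 37 DAF. The rule cut these values at the same minimum of 20 FPKM at every stage, so the closeness of the medians may follow from it. Summed over all 241, the values made up from 0.369% of all FPKM in normal fruits (32 DAF) to 1.23% (12 DAF), with 0.580%, 0.819%, 0.880% and 1.09% in those of 17, 22, 27 and 37 DAF.

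**Figure D3:**
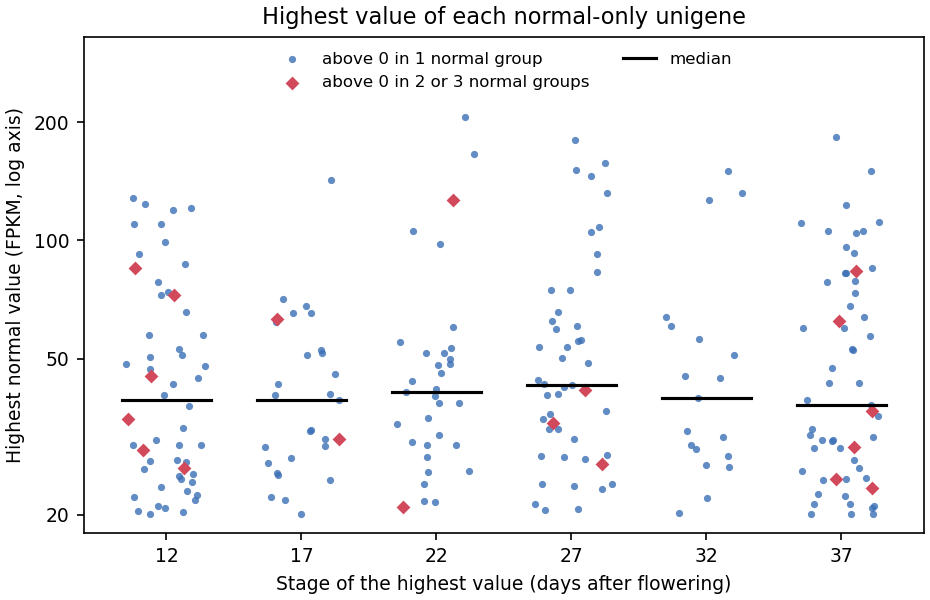
Points are the highest normal values (FPKM, log axis) of the 241 normal-only unigenes, placed at the stage of that value with random sideways spread, and lines are medians. The medians stay between 38.1 and 42.9 FPKM, and the highest points are at 22, 27 and 37 DAF.

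Set beside the other fruit type, values at 1 stage alone had no common direction. At 12 DAF, 48 unigenes of at least 20 FPKM were above 0 in normal fruits only, 43 in abnormal fruits only, and 5 in both fruit types of that stage and nowhere else. At 17 DAF the counts were 27, 57 and 0, and at 22 DAF they were 31, 18 and 24. For 27 DAF they were 44, 31 and 37, for 32 DAF 19, 28 and 36, and for 37 DAF 53, 51 and 118. As labelled, normal fruits had the larger count at 12, 22, 27 and 37 DAF, and abnormal fruits at 17 and 32 DAF. With the abnormal columns of 17 and 22 DAF exchanged, the counts became 27, 18 and 12 at 17 DAF and 31, 57 and 1 at 22 DAF, so the fruit type with the larger count changed at both stages. The difference between fruit types in these counts was not tested.

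The strongest of the 241 was DN2765_c0_g1, with 206 FPKM in normal fruits at 22 DAF. DN47128_c0_g1 reached 183 FPKM at 37 DAF, and DN555_c0_g2 reached 180 FPKM at 27 DAF. Each of these was listed at 0 in the other 11 groups. The files held here give no protein name to any of them.

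At 22 DAF, DN28270_c8_g1 (166 FPKM) and DN26168_c7_g2 (127 FPKM) followed. The leading unigenes at 27 DAF after DN555_c0_g2 were DN24180_c0_g3 (157 FPKM), DN44718_c0_g1 (151 FPKM), DN32962_c0_g1 (146 FPKM) and DN54489_c0_g1 (132 FPKM). At 32 DAF the leading unigenes were DN53611_c0_g1 (149.9 FPKM), DN43355_c0_g1 (132 FPKM) and DN41184_c0_g1 (127 FPKM), and at 37 DAF DN17540_c0_g1 (150.1 FPKM) and DN45673_c0_g1 (123 FPKM) came after DN47128_c0_g1. All but DN26168_c7_g2 were listed at 0 in the other 11 groups. At 12 DAF the highest values were 128 FPKM (DN25384_c0_g1), 124 FPKM (DN16016_c0_g1) and 121 FPKM (DN2937_c0_g1). At 17 DAF, DN24425_c2_g2 stood apart with 142 FPKM, and the next were DN14491_c0_g2 (70.7 FPKM) and DN42717_c0_g1 (68.1 FPKM). These 6 were also at 0 in every other group.

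Values at more than 1 stage of normal fruits were found for 19 of the 241, which were singled out after their values were seen. In 7 of them the stages followed each other, and in 12 at least 1 stage at 0 lay between. DN26168_c7_g2 was at 127 FPKM at 22 DAF, 74.7 FPKM at 27 DAF and 45.3 FPKM at 32 DAF. DN25206_c3_g2 went from 41.5 FPKM at 27 DAF through 33.3 FPKM at 32 DAF to 15.5 FPKM at 37 DAF. Both had their highest value at the first stage and lower values after it.

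The other run of 3 stages was DN27834_c0_g6, with 14.8 FPKM at 27 DAF, 8.87 FPKM at 32 DAF and 23.4 FPKM at 37 DAF. DN27192_c1_g1 was listed with 26.3 FPKM at 12 DAF and 19.3 FPKM at 17 DAF, and DN23056_c0_g2 with 14.9 and 31.2 FPKM at the same stages. The early stages thus included unigenes that were higher at either of the 2. DN17719_c0_g1 had values of 17.4 FPKM at 12 DAF and 72.3 FPKM at 17 DAF, was at 0 from 22 to 32 DAF, and had 83.6 FPKM at 37 DAF. A gap of this kind was also listed for DN16261_c0_g1, with 85.3 FPKM at 12 DAF, 0 at 17 DAF and 71.0 FPKM at 22 DAF, and for DN28191_c2_g6, with 72.8 and 51.6 FPKM at those stages. Within each of the 19, the highest value was 1.20 to 4.89 times the lowest value above 0, with a median of 2.56 times. With no spread over replicates, whether these differences between stages exceed the replicate error is not known.

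**Figure D4:**
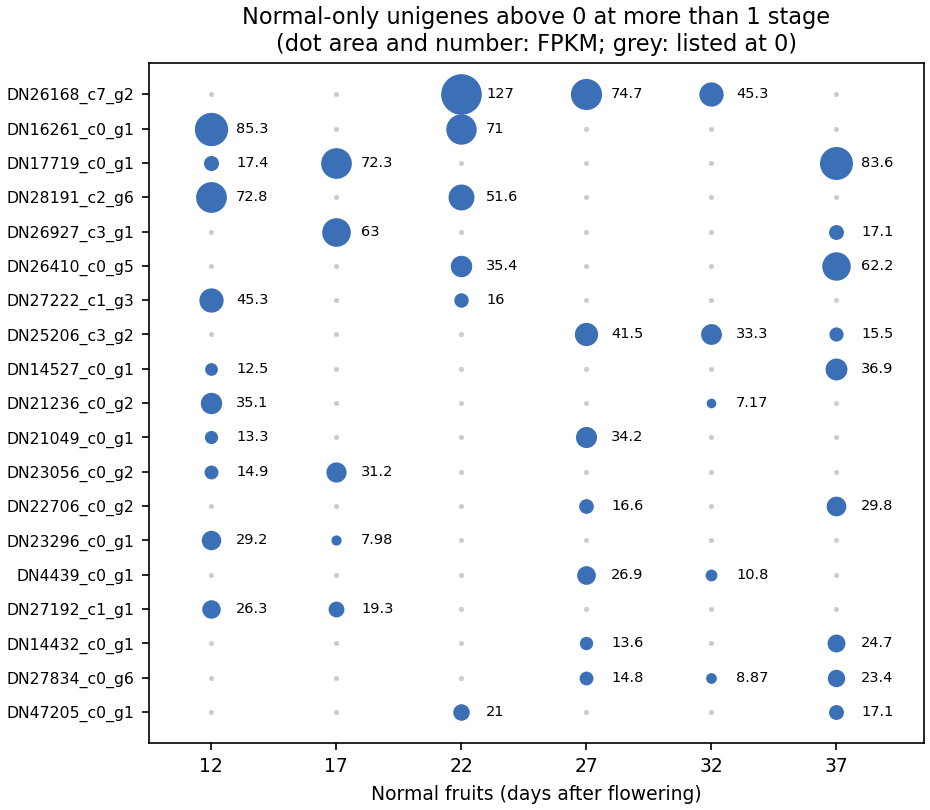
Dots show, for the 19 normal-only unigenes above 0 at more than 1 stage, the FPKM in normal fruits (dot area and number) against days after flowering, with grey for 0. In 12 of the 19 a stage at 0 lies between stages with a value.

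As a check of the rule, differences in log2(FPKM + 1) between fruit types were taken at each stage, and a unigene was called lower in abnormal fruits when the difference was larger than 1. The added 1 keeps values at 0 on the scale. At 12 DAF, 58 normal-only unigenes were called, beside 16.9% of all listed unigenes. At 17 DAF the call was made for 32, beside 23.5% of all, and at 22 DAF for 37, beside 14.6%. At 27 DAF it was 51, beside 12.1%, at 32 DAF 24, beside 6.32%, and at 37 DAF 62, beside 7.76%. These counts are the numbers of normal-only unigenes above 0 at each stage and follow from the rule. They stay at 32 and 37 with the abnormal columns of 17 and 22 DAF exchanged, while the shares of all listed unigenes become 8.02% at 17 DAF and 26.4% at 22 DAF. The median difference over the 241 was 0 at each of the 6 stages, as it was over all listed unigenes.

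Within normal fruits, calls between neighbouring stages mostly counted unigenes that went from 0 to a value or from a value to 0. From 12 to 17 DAF, 30 of 241 (12.4%) were called higher, beside 6.55% of all listed unigenes, and 55 (22.8%) were called lower, beside 11.9%. From 17 to 22 DAF, 37 (15.4%) were higher, beside 21.9% of all, and 32 (13.3%) lower, beside 12.7%. From 22 to 27 DAF, 50 (20.7%) were higher, beside 17.3%, and 36 (14.9%) lower, beside 10.1%. Since 222 of the 241 were above 0 at 1 stage only, these calls largely repeat the counts of unigenes above 0 at each stage. The rule shaped these shares, so they are not ranked against the background.

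From 27 to 32 DAF, 20 (8.30%) were higher and 48 (19.9%) lower, beside 7.75% and 18.7% of all listed unigenes. From 32 to 37 DAF, 61 (25.3%) were higher, beside 14.6%, and 23 (9.54%) lower, beside 9.16%. The rule asks for 20 FPKM at some stage of normal fruits, so these shares too are given as a description and are not ranked against the background.

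Unigenes that share the DN number in their name are called 1 assembly component here. They can be variants or copies of 1 gene but need not be, less so when the subcomponent (c) number differs. Of the 241, 36 (14.9%) had another listed unigene in their component and 205 (85.1%) had none, against 803 of the other 2457 (32.7%) with one. For 35 (14.5%) a unigene of the component was above 0 in abnormal fruits, and for 12 (4.98%) it reached 20 FPKM there. Counting only unigenes of the same subcomponent, 24 had one above 0 in abnormal fruits. How reads were divided among unigenes of a component was left to the authors' estimation, so a value of 0 for 1 of them is uncertain.

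DN21236_c0_g2 was listed in normal fruits, with 35.1 FPKM at 12 DAF and 7.17 FPKM at 32 DAF. Its partner DN21236_c0_g1 was above 0 in all 12 groups, and at 12 DAF normal fruits had 374 FPKM of it and abnormal fruits 205 FPKM. Thus the component as a whole was not restricted to normal fruits. DN25512_c0_g1 was listed with 60.6 FPKM in normal fruits at 27 DAF, and its strongest partner DN25512_c1_g1, of another subcomponent, was then at 89.7 FPKM, against 164 FPKM in abnormal fruits. This partner was higher in the fruit type in which DN25512_c0_g1 was at 0.

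DN26198_c0_g8 had 29.4 FPKM in normal fruits at 32 DAF, where DN26198_c0_g1 had 120 FPKM, against 105 FPKM in abnormal fruits. DN24191_c0_g4 had 106 FPKM in normal fruits at 37 DAF, where DN24191_c0_g1 had 47.6 FPKM, against 37.8 FPKM in abnormal fruits. In both components the partner was above 0 in either fruit type at the stage of the normal-only unigene. DN25206_c3_g2, described above from 27 to 37 DAF, had a partner with the opposite restriction, DN25206_c3_g4, listed with 30.6 FPKM in abnormal fruits at 22 DAF and 0 in the other 11 groups. The remaining 5 of the 10 components chosen by the partners' abnormal value were those of DN25359_c2_g2, DN24980_c1_g6, DN27222_c1_g3, DN23008_c3_g6 and DN24078_c0_g8, whose strongest partners reached between 28.4 and 77.2 FPKM in abnormal fruits. Over the 51 partners, 20 were above 0 in all 12 groups, 3 were at 0 in all abnormal groups, and 1 was at 0 in all normal groups.

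**Figure D5:**
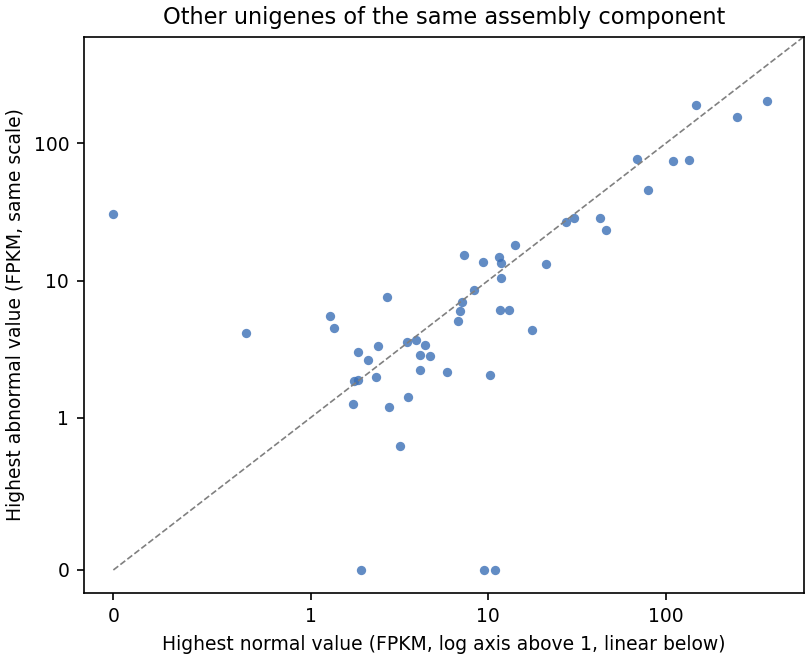
Points are the 51 other listed unigenes in the components of normal-only unigenes, with their highest normal FPKM on the x axis and their highest abnormal FPKM on the y axis (log above 1, linear below). Most lie near the dashed line of equality, 3 are at 0 in abnormal fruits and 1 is at 0 in normal fruits.

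The assembly names themselves also differed. Component numbers of 30000 or more, a split chosen after the values were seen, were carried by 114 of the 241 (47.3%), by 7.20% of the other 2457 and by 17.5% of all listed unigenes. Among the abnormal-only unigenes the share was 55.4%. Names ending in c0_g1, the first unigene of the first subcomponent, were carried by 175 (72.6%) of the normal-only unigenes, 51.3% of the other 2457 and 78.5% of the abnormal-only unigenes. In both features the normal-only unigenes were close to the abnormal-only ones and apart from the other unigenes of at least 20 FPKM.

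Many values of the 241 were also the value of another unigene. Of their 264 values above 0, 54 (20.5%) were equal to 6 decimals to that of another listed unigene in the same group, and these belonged to 51 unigenes. At 37 DAF, 21 of 62 values (33.9%) were shared, and at 12 DAF 5 of 58 (8.62%). For example, DN22677_c0_g2 and DN24191_c0_g4 were both at 106 FPKM at 37 DAF, and DN24980_c1_g6, DN25141_c0_g1 and DN26168_c7_g2 were all at 74.7 FPKM at 27 DAF. These examples were chosen after their values were seen.

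In a comparison also chosen after the values were seen, counted over values of at least 20 FPKM in all 12 groups, 46 of 248 (18.5%) were shared for the normal-only unigenes and 30 of 252 (11.9%) for the abnormal-only unigenes. Unigenes above 0 in 1 normal and 1 abnormal group alone shared 155 of 551 (28.1%). For the 2101 unigenes above 0 in all 12 groups it was 1 of 17381 (0.00575%). Equal values were thus found among unigenes listed in few groups, in either fruit type, and their part in the normal-only pattern was not tested.

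Protein names were held here for few of the 241. The parts of the study's annotation that were held had a row for 1017 listed unigenes, 20 of them normal-only. Of the 20, 10 (50%) had no annotation, against 20 of 189 (10.6%) for the other unigenes of at least 20 FPKM with a row. A best hit in Prunus, the genus of almond, peach and Japanese apricot, was given for 4 (20%) of the 20 and for 162 (85.7%) of the 189. All 20 had component numbers below 30000, while 114 of the 241 (47.3%) had numbers of 30000 or more. The 20 are therefore not a sample of the whole set, and these shares describe only the rows held. Little of this set can be described by protein function.

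The 4 with a Prunus hit included DN14527_c0_g1, like formin-2 of Prunus mume, which normal fruits had at 12.5 FPKM (12 DAF) and 36.9 FPKM (37 DAF). Formins nucleate and elongate actin filaments. The other 3 matched proteins without a known function: DN13053_c0_g1 (35.7 FPKM at 37 DAF), DN9816_c0_g1 (29.7 FPKM at 37 DAF) and DN11365_c0_g1 (23.0 FPKM at 12 DAF). DN13873_c0_g1, with an actin domain, a protein of the cytoskeleton, was at 27.7 FPKM at 27 DAF. DN23682_c5_g4, with an HMG box, a domain that binds and bends DNA, was at 26.7 FPKM at 32 DAF. Its best hit was in the green alga Volvox carteri, while another protein database gave an HMG1/2-like protein of broad bean (Vicia faba).

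The remaining 4 named unigenes were all found at 17 DAF and had best hits in Brassicaceae, the family of Arabidopsis and Camelina. DN12318_c0_g1 was at 51.1 FPKM and matched the kinase CTR1, which in Arabidopsis holds back ethylene signalling in the absence of ethylene. DN12591_c0_g1 was at 22.2 FPKM and matched a cytochrome P450 of the 81F family, enzymes of indole glucosinolate metabolism in Arabidopsis. DN14491_c0_g2 (70.7 FPKM) matched AT2G25670 and DN16067_c0_g2 (28.0 FPKM) matched AT5G16840. Each was listed at 0 in the other 11 groups.

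Over all 170 listed unigenes with a Brassicaceae best hit in the parts held, normal fruits had 121 above 0 at 12 DAF and 125 at 17 DAF, and abnormal fruits had 142 at 12 DAF and 95 at 22 DAF. In each of the other 8 groups, abnormal fruits at 17 DAF included, 0 or 1 was above 0, and 169 of 170 (99.4%) were at 0 in all 8. At 17 DAF their summed level was 580 FPKM in normal fruits, against 13.2 FPKM in the abnormal ones so labelled and 146 FPKM in those labelled 22 DAF, where normal fruits were at 0. Of all listed unigenes, 346 were above 0 in exactly normal fruits of 12 and 17 DAF and abnormal fruits labelled 12 and 22 DAF. The 424 unigenes with a Prunus best hit had between 277 and 326 above 0 in every group. Of the 241 normal-only unigenes, 78 were above 0 at 12 or 17 DAF and nowhere else, and 4 of them carry a Brassicaceae hit in the parts held. The part of the Brassicaceae-like unigenes in the normal-only pattern was not tested. Without the 4 the set has 237 unigenes, but 20 of 241 have an annotation row, and at 17 DAF all 4 of those with a row had a Brassicaceae hit, so how many of the others would have one is not known.

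Read by words in the annotation, with words chosen after the annotation was seen, 0 of the 20 fell under photosynthesis and chloroplast, ribosome and translation, cell wall and carbohydrate, or transposon and virus. Transcription or DNA binding was named for 1 (DN23682_c5_g4), hormone and kinase for the same 1 (DN12318_c0_g1), and oxidoreductase for 1 (DN12591_c0_g1). The word transport was matched for 2 (DN12591_c0_g1 and DN16067_c0_g2), but neither had it in its protein name. For DN12591_c0_g1 it stood in a class title, secondary metabolites biosynthesis, transport and catabolism. Over the 1017 listed unigenes with a row, these groups held from 1.08% (transposon and virus) to 12.6% (transport). Of the 20 with a row, 10 had no annotation and could match no word. Counts of 0 to 2 from so few do not set the normal-only unigenes apart from the others.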

How the data were processed

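RNA was sequenced from normal and abnormal almond fruitlets at 6 stages. According to the methods, the authors assembled unigenes with Trinity, aligned the reads with Bowtie2, used RSEM for read counts and DESeq2 for their normalization, and computed FPKM from effective length and library size. The deposited values are FPKM, as 1 authors' mean per group. Groups were taken from the labels and the column names. Reads per value are unknown, so the precision of a value is unknown too. The 12 columns were joined on the unigene name and used as deposited. Unigenes at 0 FPKM in all abnormal groups and at least 20 FPKM in a normal group were selected, and differences were taken in log2(FPKM + 1) with a threshold of 1. No test was possible. Named unigenes are the 15 highest, the 3 highest per stage, those with a protein name, those next to the thresholds and the 10 with the strongest partners in abnormal fruits, and any others were chosen after their values were seen. Members, lists and rules were chosen with earlier results of these data known. Annotation was read from tables held in part, and 0 unigenes matched the reference gene table. Alternatives changed the minimum, the limit in abnormal fruits, the groups, the scaling, the pseudocount, the threshold and the definition of a partner. The counting was tested on simulated data. Python 3.11.15, numpy 2.4.6, pandas 2.3.3 and matplotlib 3.10.9 were used.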

Additional observations from a re-analysis of the deposited data

How the results depend on the processing

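Of 128 alternatives, 117 gave counts within 1.5 times the values reported. Many of these recounted calls between 0 and a value under another pseudocount, scaling or threshold. Such calls could hardly move, so the 117 are not a measure of how firm the results are. A minimum of 10 FPKM gave 423 normal-only unigenes, 373 of them above 0 in 1 normal group, and a minimum of 50 FPKM gave 92 and 86. Leaving out normal fruits at 12 and 17 DAF, which was chosen after seeing the data, gave 160. Exchanging the abnormal columns of 17 and 22 DAF, also chosen after seeing the data, left 241 normal-only unigenes and moved the other 6, the counts and background shares given both ways in the report for these stages. Allowing up to 1 FPKM in abnormal fruits left the count at 241, scaling to equal totals gave 234 and median-of-ratios scaling 227. Leaving out 1 abnormal group gave between 243 (the column labelled 17 DAF) and 349 (37 DAF). Leaving out 1 normal group gave between 184 (37 DAF) and 222 (32 DAF). Median-of-ratios scaling set abnormal against normal fruits between -0.29 and 0.03 on the log2 scale. No paired analysis was possible because the files hold 1 mean per group, and leaving out replicates was not run for the same reason.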
